A study of Mus musculus with 6 samples.

Results

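Paneth-RNA-rich barcodes are Drop-seq barcodes in which RNA of Paneth cell genes made up an unusually large part of the counts. They were chosen by their measured counts, so the values of the choosing genes are given as a description. Drop-seq is a droplet method that tags the RNA of each cell with a barcode, here of 12 bases, and counts the 3′ ends of transcripts. A barcode was taken when it held at least 100 counts and at least 5% of them fell on 15 listed genes, of which 13 were present in the tables (*Lyz1*, *Defa17*, *Defa21*, *Defa22*, *Defa24*, *Defa26*, *Gm14851*, *Gm15284*, *Ang4*, *Mmp7*, *Itln1*, *Habp2* and *AY761184*). This gave 1882 members among the 9428 barcodes with at least 100 counts (19.96%), of 13191 barcodes in all. Only 45 members had 300 or more detected genes and are called likely cells here. The other 1837 are called small barcodes.

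Mice were C57BL6 and 10 weeks old, and the crypts of their small intestine were freshly isolated. The knockout group lacked *Ptger4*, which encodes the prostaglandin E2 receptor EP4, in its epithelium, and the flox group carried the floxed gene without that loss. Each genotype had 3 collections of droplets from 2 biological replicates, and values per collection are given in the order 1 to 3. Collections 1 and 2 of a genotype were read from their codes as biological replicate 1 and collection 3 as biological replicate 2. No source used here gives the Cre driver, the deleted part of the gene or the number of animals behind a biological replicate, so p-values measure only the spread between these samples.

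Paneth cells sit at the base of small-intestinal crypts between the stem cells and release granules of antimicrobial proteins into the crypt lumen. Their granules hold alpha-defensins, short peptides that damage bacterial membranes, together with lysozyme, which cleaves bacterial cell walls, and the ribonuclease angiogenin 4. The protease matrilysin, encoded by *Mmp7*, cuts mouse pro-alpha-defensins into their active form. Wnt signalling through TCF factors drives the maturation of Paneth cells, and defensin genes and *Mmp7* are among the known targets.

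Of the 13 genes, 8 lay in the defensin cluster of chromosome 8, between 21025545 (*Defa21*) and 21735471 (*Defa24*) in build GRCm38. RefSeq lists *Gm15284* as an earlier name of *Defa30* and *Gm14851* as an earlier name of *Defa38*. The RefSeq promoter table (GRCm38.p6) held windows of 300 bases, from 250 before to 50 after the gene start, for 9 of the 13 genes. The 4 windows below are shown because their genes parted in the results: *Defa22* and *Gm15284* were abundant in barcodes made mostly of Paneth RNA and nearly missing from those that also carried goblet RNA, whereas *Mmp7* and *Itln1* were counted in both kinds. Capitals mark ATCAAAG or its reverse complement CTTTGAT, the core motif of TCF factors. The window of *Defa21* (chr8:21025295-21025594, plus strand) has the same letters as that of *Defa22*.
Defa22, chr8:21162027-21162326, plus strand: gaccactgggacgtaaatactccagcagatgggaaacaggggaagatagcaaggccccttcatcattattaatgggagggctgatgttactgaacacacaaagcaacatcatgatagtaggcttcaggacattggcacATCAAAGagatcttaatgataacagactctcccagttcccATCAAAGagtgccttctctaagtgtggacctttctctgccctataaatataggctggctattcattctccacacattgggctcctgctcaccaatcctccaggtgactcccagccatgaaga
Gm15284 (Defa30), chr8:21134400-21134699, plus strand: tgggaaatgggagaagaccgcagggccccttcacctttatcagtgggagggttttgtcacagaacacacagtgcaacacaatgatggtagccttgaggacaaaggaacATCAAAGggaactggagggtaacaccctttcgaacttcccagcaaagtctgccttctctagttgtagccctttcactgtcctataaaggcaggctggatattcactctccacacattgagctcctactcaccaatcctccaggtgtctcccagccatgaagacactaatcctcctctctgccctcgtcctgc
Mmp7, chr9:7691840-7692139, plus strand: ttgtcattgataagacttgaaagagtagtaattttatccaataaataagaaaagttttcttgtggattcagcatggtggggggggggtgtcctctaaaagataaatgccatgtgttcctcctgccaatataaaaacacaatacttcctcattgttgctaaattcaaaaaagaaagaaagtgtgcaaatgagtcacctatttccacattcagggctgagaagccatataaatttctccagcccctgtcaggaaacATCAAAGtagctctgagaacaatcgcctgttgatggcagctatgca
Itln1, chr1:171535245-171535544, minus strand: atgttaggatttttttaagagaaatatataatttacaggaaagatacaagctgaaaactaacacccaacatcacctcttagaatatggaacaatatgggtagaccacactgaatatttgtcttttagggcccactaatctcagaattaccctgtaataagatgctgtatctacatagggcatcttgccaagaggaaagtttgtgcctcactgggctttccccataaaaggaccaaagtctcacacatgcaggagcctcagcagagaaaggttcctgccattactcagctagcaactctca
The motif was searched on both strands and its letters began 112 and 72 bases before the start of *Defa22* and 142 bases before that of *Gm15284*. It was found in windows of 4 of the 9 genes, namely *Defa21*, *Defa22*, *Gm15284* and *Mmp7*, and in 3.73% of all 32851 windows of the table. In the *Mmp7* window shown, the motif lies after the gene start. Another *Mmp7* window, chr9:7692091-7692390, holds it 247 bases before the start used there. A match is a description of the letters and not a binding site.

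The total count per collection ranged over 1605533 to 2646093 in knockout and 1228337 to 3146909 in flox. *Xist*, which coats an inactive X, had 1880 counts in knockout collection 3 and 1674 in flox collection 3 and at most 12 in the other collections. Flox collection 3 alone held 990 members, 52.6% of all. Without it there were 892 members among 6928 barcodes with at least 100 counts (12.9%), of which 34 were likely cells. The same barcode letters occurred in more than 1 collection for 60 barcodes, and no barcode was a member in more than 1 collection.

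The members were mostly small barcodes rich in mitochondrial RNA. Small members had a median of 141 counts and 80 genes, against 920 counts and 455 genes in likely cells. Both of these measures are set by the split itself. The mitochondrial share of counts had a median of 34.0% in small members and 5.37% in likely cells, and it exceeded 25% in 1425 of the 1837 small members and in 1 of the 45 likely cells. Without flox collection 3 the medians were 27.7% in small members and 4.07% in likely cells, and 510 of 858 small members exceeded 25%. Mitochondrial ribosomal RNA *mt-Rnr2* alone took 28.2% of the counts of small members that had under 50% Paneth counts, and 22.1% without flox collection 3. Summed per genotype and biological replicate, the mitochondrial share was 26.7% in small members and 8.85% in likely cells of knockout 1, and 24.4% and 4.13% in knockout 2. In flox 1 it was 24.1% in small members and 1.62% in likely cells, and in flox 2 it was 38.6% and 9.05%. Small members thus lay above the likely cells in 4 of 4 biological samples, by 22.6 percentage points on average (SD 5.06, exact sign-flip test, the smallest p that 4 samples allow, which is above 0.05).

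The Paneth share was lower the more counts a barcode held. Over all barcodes it was 8.51% of counts at 50 to 100 counts, 6.97% at 100 to 150, 5.76% at 150 to 200, 3.78% at 200 to 300, 1.77% at 300 to 500, 1.21% at 500 to 1000 and 0.537% from 1000 counts up. Of barcodes with 100 to 150 counts 66.9% were members (44.9% to 86.4% over the collections), and of those with 1000 or more 0.697%. Without flox collection 3 the Paneth share was 6.53% at 100 to 150 counts, 4.72% at 150 to 200, 2.53% at 200 to 300 and 0.562% from 1000 counts up. Barcodes under 100 counts, which could not be members, held a Paneth share of 7.47%, 6.44% and 6.99% in the knockout collections and 9.92%, 10.97% and 8.09% in the flox collections. The 5% threshold lay below this level in all 6 collections. The share of small members at or below the level of their own collection's barcodes under 100 counts ranged over 35.7% to 54.1% in knockout and 47.5% to 59.8% in flox. Only 85 of the 1837 small members exceeded 2 times the level over all such barcodes. Free RNA can give counts to droplets that hold no cell, and its part in the small members was not tested.

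**Figure D1:**
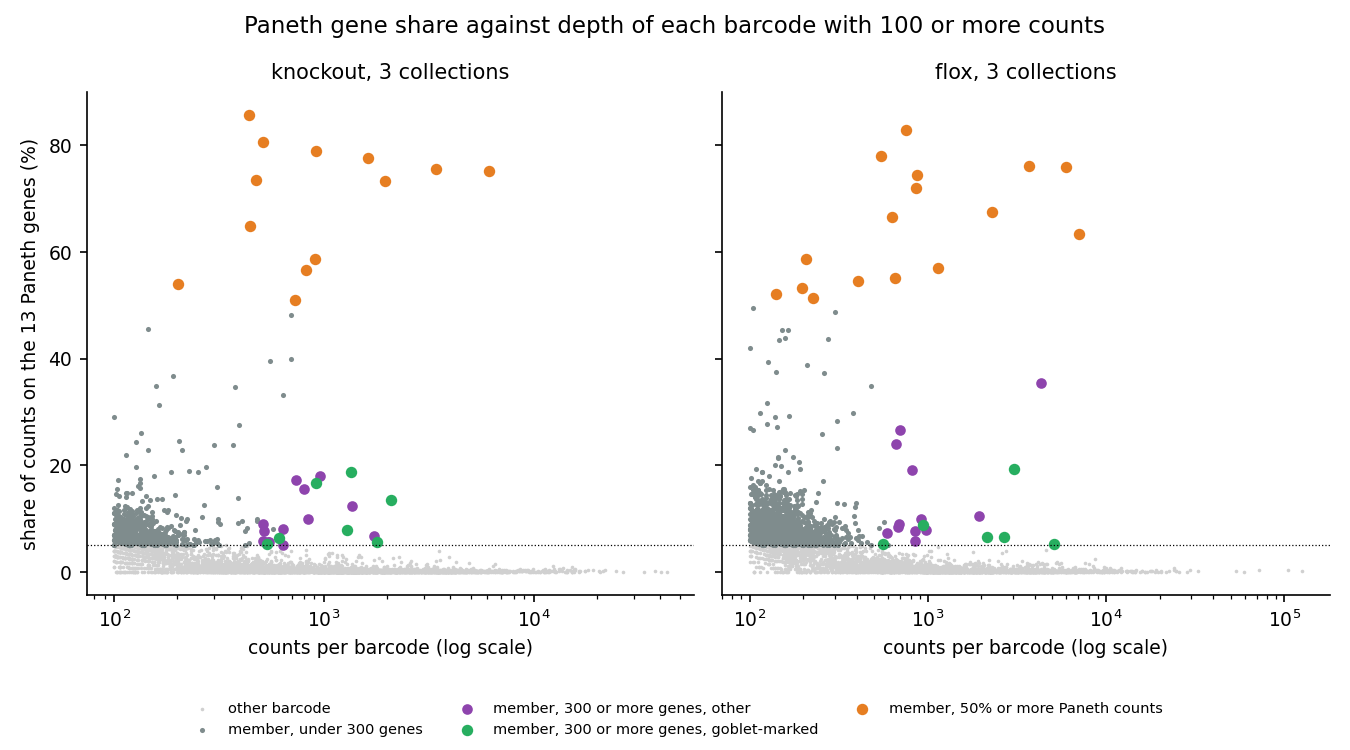
Share of counts on the 13 Paneth genes (linear axis, %) against counts per barcode (log axis) for every barcode with at least 100 counts, knockout on the left and flox on the right, with the dotted line at the 5% threshold. Most members crowd at the left edge between 5% and 20%, 53 lie between 20% and 50%, and 29 lie at 50% or more. No gap marks the cut at 50%.

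**Figure D2:**
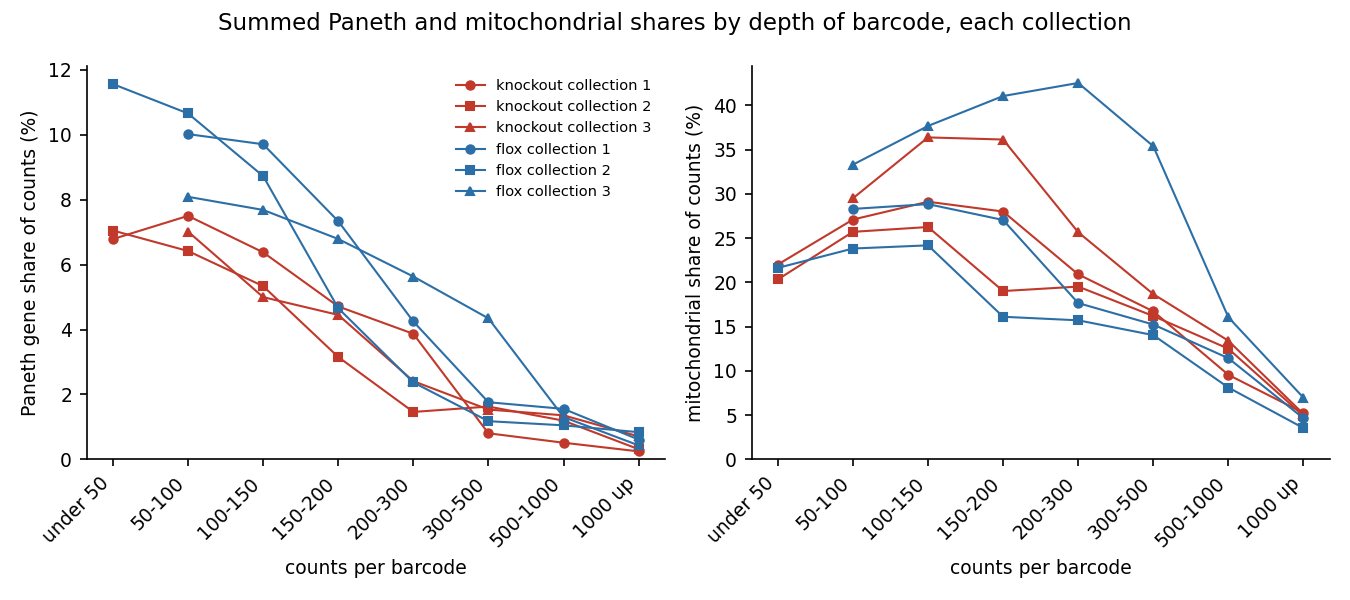
Paneth share (left) and mitochondrial share (right) of the summed counts by depth of the barcode, 1 line per collection, with bins of at least 5 barcodes drawn. The Paneth share lies between 4.998% and 9.71% at 100 to 150 counts and between 0.246% and 0.837% at 1000 counts and more, and flox collection 3 has the highest mitochondrial share from 100 counts on.

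No gap marked the threshold. There were 420 barcodes with a share from 5% up to 6% and 426 from 4% up to 5%, with median counts of 154 and 163 and median mitochondrial shares of 39.5% and 37.7%. Without flox collection 3 there were 187 and 244. Of the members, 1429 had a share under 10%, 371 lay between 10% and 20%, 53 between 20% and 50%, and 29 at 50% or more. Of the 10 barcodes just inside the threshold the lowest had 5% exactly, and the 10 just outside reached 4.99%.

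The 29 barcodes with 50% or more Paneth counts, called Paneth-majority barcodes, were the clearest Paneth cell profiles. The cut at 50% was chosen after the values were seen, so it carries no test. They numbered 0, 5 and 8 in the knockout collections and 8, 2 and 6 in the flox collections. Their Paneth share had a median of 67.5% and reached 85.7%, and their mitochondrial share had a median of 2.83%. Although they held 140 to 7088 counts (median 754), only 7 of the 29 had 300 or more genes, with a median of 137 genes. After each barcode was thinned to 100 counts, Paneth-majority barcodes showed a median of 37 genes, against 59 in the other small members and 89 in non-member barcodes with 300 or more genes. A high Paneth share leaves fewer counts for other genes, mitochondrial ones included, and the non-members were chosen for 300 or more genes. The choice thus bears on these numbers, which are a description. A filter at 300 genes removed 22 of the 29. The deepest of these was a barcode of 1617 counts in knockout collection 3 that held 217 genes and 77.6% Paneth counts. The largest Paneth-majority barcode, in flox collection 1, had 7088 counts, 1199 genes and 63.4% Paneth counts. These 29 barcodes held 23.9% of all Paneth counts in the series, and in knockout collection 3 they held 47.4%.

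All 29 carried *Lyz1*, *Defa17*, *Defa21*, *Defa22*, *Defa24*, *Gm14851*, *Gm15284* and *AY761184*. *Defa24*, an alpha-defensin gene, was the most abundant gene with 10666 counts (24.1% of their counts), followed by *Gm15284* with 5518 (12.5%) and *Defa17* with 3571 (8.07%). *Lyz1*, the lysozyme of Paneth cells, had 2155 counts and ranged over 4 to 490 counts per barcode. Among the other secreted products, *Itln1*, an intelectin that binds microbial sugars, had 977 counts in 27 barcodes and *Ang4* had 403 counts in 28. *Mmp7* had 64 counts in 17 barcodes, and *Habp2*, a serine protease gene, had 1 count. Genes outside the rule that are known from Paneth cells were present as well: *Mptx2*, a pentraxin gene, had 157 counts in 26 barcodes and *Clps*, the colipase gene, 56 counts in 20. Of the goblet markers, *Spink4*, which Paneth cells also express, had 443 counts in 26 of the 29, *Tff3* 41, *Muc2* 28 and *Zg16* 5. The goblet list took 1.73% to 6.14% of their counts outside the rule and mitochondrial genes, against 1.502% to 2.39% in non-members with 300 or more genes. The stem cell gene *Lgr5* had 1 count and *Olfm4* 0. The 5 fixed markers (*Lyz1*, *Defa22*, *Defa24*, *Ang4* and *Itln1*) are all rule genes, so their presence here does not check the label.

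Over all members the markers were also set beside other barcodes. *Defa24* was counted in 1857 of 1882 members, but also in 3433 of the 5029 other barcodes with 300 or more genes. *Lyz1* was counted in 50.8% of members (median 142 counts per barcode) and in 25.9% of those other barcodes (median 1227 counts). For *Defa22* the shares were 54.5% in members and 24.7% in the others, for *Ang4* 24.7% and 13.9%, and for *Itln1* 29.8% and 18.9%. Without flox collection 3 the *Lyz1* shares were 52.8% and 26.7% and the *Defa22* shares 48.5% and 24.0%. The rule used these genes, so the differences carry no test.

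The shares of the defensin genes over collections overlap between the Paneth-majority barcodes, other small members and barcodes under 100 counts, although they differ within single collections. *Defa24* made up 33.1% to 37.9% of Paneth counts in Paneth-majority barcodes of the 5 collections that had any, 31.7% to 39.95% in the small members that were neither Paneth-majority nor goblet-marked, and 31.5% to 40.8% in barcodes under 100 counts. *Lyz1* made up 3.69% to 10.2%, 5.67% to 10.4% and 3.70% to 10.0% in the same sets. The number of *Gm15284* counts per *Defa24* count was 0.295 to 0.781 in Paneth-majority barcodes, 0.358 to 0.430 in the small members and 0.3333 to 0.623 under 100 counts. *Defa21* made up 7.18% to 11.7%, 5.01% to 10.5% and 3.77% to 11.2% in these sets and *Defa22* 6.89% to 10.4%, 4.27% to 10.8% and 4.17% to 9.99%. Within knockout collection 2 *Defa21* was at 9.20%, 5.10% and 3.77%, and within flox collection 2 *Gm15284* per *Defa24* was at 0.781, 0.373 and 0.385. Near-identical copies limit these values: over the last 250 transcript bases *Defa21* and *Defa22* were 98.8% identical, *Defa24* and *Gm15284* 97.2%, and *Defa17* and *Defa24* 94.0%. No source used here says how reads shared by such copies were counted, so counts of single defensin genes are uncertain.

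**Figure D3:**
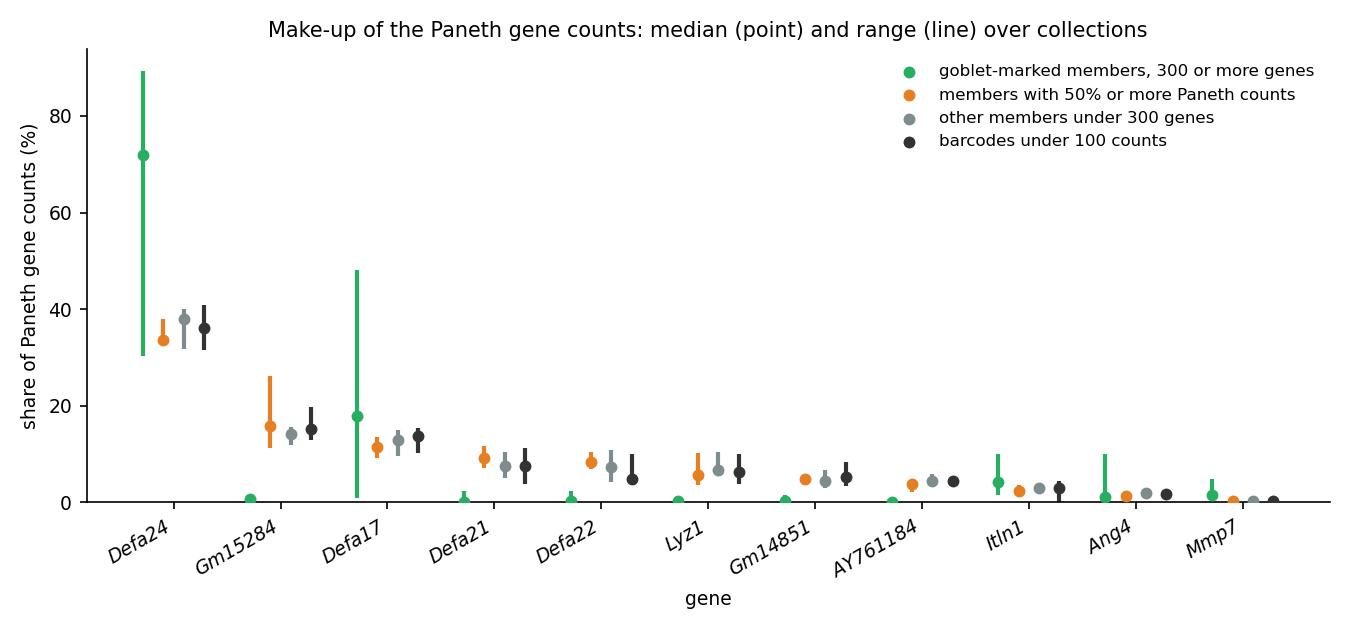
Share of the Paneth gene counts (%) on each of 11 genes, as the median (point) and range (line) over collections, for goblet-marked members with 300 or more genes, Paneth-majority barcodes, other members under 300 genes and barcodes under 100 counts. The last 3 sets overlap for *Defa24*, *Gm15284* and *Lyz1*, whereas in the goblet-marked members *Defa24* and *Defa17* hold most of the counts and *Gm15284* and *Lyz1* lie near 0.

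A different mixture was seen in 13 likely cells that also carried goblet cell RNA. Goblet cells make mucus, and these barcodes had at least 5% of counts on the fixed goblet markers other than *Spink4* (a cut chosen after the values were seen). They came from all 6 collections, 2, 3 and 2 in knockout and 1, 3 and 2 in flox. Their leading genes were *Spink4*, a secreted protease inhibitor of goblet and Paneth cells, with 1644 counts, *Tff3*, the goblet trefoil peptide, with 1584, *Defa24* with 1577 and *Zg16*, a goblet lectin, with 812. *Muc2*, the main gel-forming mucin, had 155 counts in 11 of the 13. Of the Paneth genes, *Defa24* was counted in all 13 (8 to 528 counts per barcode) and *Defa17* in all 13 (2 to 118), and *Itln1* had 119 counts and *Mmp7* 54. By contrast *Lyz1* had 9 counts in the 13 barcodes together, *Defa21* 8, *Defa22* 7, *Gm14851* 7, *AY761184* 5 and *Gm15284* 17.

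The goblet-marked likely cells held 0.00524 to 0.0256 *Gm15284* counts per *Defa24* count in the 6 collections. The range was 0.276 to 0.371 in the 4616 other non-member barcodes with 300 or more genes, and 0.0781 to 0.198 in the 413 goblet-marked non-members. Each of the 6 collections of goblet-marked likely cells thus lay below every collection of these 2 sets and of barcodes under 100 counts. Both genes belong to the rule that chose the members, and *Defa24* made up 70.2% of the Paneth counts of these cells. The ratio therefore carries no test, and how far the choice of members set it was not tested. Each collection held only 1 to 3 such barcodes. In flox collection 1 a single barcode of 3064 counts held 528 counts of *Defa24*, 391 of *Spink4* and 176 of *Tff3*, with 1 count of *Lyz1* and 0 of *Defa21* and *Defa22*. In knockout collection 2 a barcode of 2095 counts held 162 counts of *Defa24*, 118 of *Defa17*, 190 of *Spink4* and 193 of *Tff3*, with 1 count of *Lyz1*. The balance of the 2 defensins varied, since *Defa17* took 0.846% of the Paneth counts in flox collection 1 and 48.1% in knockout collection 3. *Reg3g*, an antimicrobial lectin gene, had 223 counts in these cells, 138 of them in 1 barcode of flox collection 2. Doublets were not called, and whether these barcodes held 1 cell or more was not tested. *Ang4* made up 0% to 10.1% of the Paneth counts in the goblet-marked likely cells, against 5.22% to 32.6% in the 413 goblet-marked non-members, whose Paneth share was 0.541%.

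The remaining 25 likely cells passed neither cut. Their Paneth share was 5.16% to 35.5%, their mitochondrial share had a median of 8.94%, and *Gm15284* stood at 0.221 to 0.382 per *Defa24* count over the 5 collections that had any. *Lyz1* was counted in 24 of the 25 (302 counts) and *Defa24* in all (1547 counts). The deepest, in flox collection 3, had 4336 counts, 1324 genes and 35.5% Paneth counts, with 699 counts of *Defa24*, 215 of *Defa17* and 128 of *Lyz1*. One of the 25, in knockout collection 2, had 97 counts of *Defa24*, 34 of *Spink4* and 36 of *Tff3* with 0 of *Lyz1* and 2 of *Gm15284*, and its goblet share of 3.52% lay under the cut. Together the likely cells drew 39.2% of their counts from 7 Paneth-majority barcodes, 29.6% from the 13 goblet-marked ones and 31.2% from these 25.

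Outside the rule genes, summed likely cells were richer in other Paneth and some secretory genes than the 5029 non-members with 300 or more genes. The rule chose the members on this contrast, so these values are a description. Ratios were taken over counts outside the rule and mitochondrial genes and averaged over the 4 biological samples. Of the other Paneth genes with at least 10 counts in likely cells, 14 of 17 had a positive log2 ratio in 4 of 4 samples. For 1, *Reg3b*, the ratio was negative in 4 of 4. Among 746 genes in all, 183 were positive and 165 negative in 4 of 4. The ratio could be positive where likely cells held 0 counts, so these numbers overstate how often CPM was higher. In knockout 1 *Clps* had 0 against 8.84 CPM (log2 ratio 2.52) and *Pnliprp2* 0 against 5.16 CPM (3.27). The log2 ratio was 7.30 for *Defa3* (SD 1.97) and 6.78 for *Defa5* (SD 2.73), both defensin genes. It was 6.22 for *Mptx2*, 4.85 for *Reg4*, a lectin of secretory cells, 4.27 for *Nupr1*, a stress-induced nuclear protein, and 3.66 for *Spink4*. Of the goblet markers with at least 10 counts 6 of 6 were higher, among them *Muc2* at 2.31, *Tff3* at 2.27 and *Zg16* at 1.90. These values move with the 13 goblet-marked cells: goblet markers took 20.2% to 27.3% of their counts outside the rule and mitochondrial genes, against a median of 1.26% over collections in the 25 other likely cells and 1.74% in non-members with 300 or more genes. The immediate early genes *Fosb*, *Egr1* and *Jun* stood at 2.42, 2.02 and 1.96 and *Atf3* at 1.74. Of 20 secretory pathway genes with at least 10 counts, 10 had a positive log2 ratio in 4 of 4 and 0 a negative one. These 10 include *Ern2*, *Sec61a1* and *Pdia3*, whose CPM in knockout 2 was lower in likely cells. The values there were 0 against 36.5, 121 against 149 and 485 against 537 CPM. In the 25 other likely cells the secretory list took 0.505% to 1.59% of such counts over collections. That range encloses the 1.05% to 1.18% of non-members with 300 or more genes. Other Paneth genes took 2.45% to 3.73% in the 25, against 1.61% to 2.50% in those non-members and 21.1% to 35.0% in Paneth-majority barcodes. *Ddit3*, a transcription factor of the unfolded protein response, stood at 2.75, *Herpud1*, a gene of protein degradation at the endoplasmic reticulum, at 2.72 and *Xbp1*, a regulator of secretory cells, at 1.66, with 17, 18 and 13 counts in likely cells.

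Markers of other cell types were present in the small members at shares that overlap those of barcodes under 100 counts and of non-members with 300 or more genes. Of the counts outside the rule and mitochondrial genes, goblet markers took 1.71% to 2.63% in small members over the 6 collections, against 1.84% to 3.41% in barcodes under 100 counts and 1.502% to 2.39% in non-members with 300 or more genes. Enterocyte markers took 0.210% to 0.533% in small members, against 0.296% to 0.523% under 100 counts and 0.332% to 0.603% in those non-members. Stem markers took 0.0471% to 0.123% in small members and 0.0658% to 0.0859% in the same non-members. In Paneth-majority barcodes enterocyte markers took 0% to 0.164%. Other Paneth genes took 2.49% to 5.34% in small members, 21.1% to 35.0% in Paneth-majority barcodes and 2.39% to 3.93% under 100 counts.

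Small members and likely cells were then compared across all genes in the same libraries. Of 266 genes outside the rule that were tested, 29 passed (10.9%), 8 higher in small members (3.01%) and 21 lower (7.89%; edgeR's quasi-likelihood test with the biological sample as a block, Benjamini-Hochberg adjustment). With no filter on low counts 23 of 11548 passed, 21 higher and 2 lower. Goblet markers were lower in small members: of 6 tested 6 fell, with a median log2 fold change of -1.83 against 0.06 over all tested genes. *Spink4* had 3670 and 6072 CPM in small members of knockout 1 and 2 and 3072 and 3039 CPM in those of flox 1 and 2, against 39964 and 16362 CPM in likely cells of knockout and 31434 and 19457 CPM in those of flox. Its log2 fold change was -2.79 (SE 0.54, adjusted p = 0.00586). *Tff3* fell by 2.61 on the log2 scale (SE 0.54, adjusted p = 0.00949), and its likely-cell level ranged over 6149 to 45226 CPM. *Ccl6*, a chemokine gene, changed by -2.44 (SE 0.29, adjusted p = 0.000503), *Guca2a*, which encodes guanylin, by -2.34 (SE 0.37) and *Agr2*, a disulfide isomerase of secretory cells, by -1.69 (SE 0.38). *Muc2* and *Fcgbp*, both of goblet mucus, changed by -1.57 and -1.68. These values move with the 13 goblet-marked cells, which held 10.0% to 64.8% of likely-cell counts in the 6 collections. Their part in the result was not tested. With members of at least 10% Paneth share, 0 of 87 genes passed (edgeR, 4 at an unadjusted p under 0.05). DESeq2 called 38 genes (14.3%), 12 higher (4.51%) and 26 lower (9.77%). Without knockout collection 3 edgeR called 23 of 338 (6.8%), 6 higher (1.78%) and 17 lower (5.03%). Leaving out knockout collection 1 gave 17 calls, and leaving out flox collection 1, 2 or 3 gave 11, 15 and 11.

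Of 8 tested mitochondrially encoded genes 4 rose in small members and all 8 had positive values, with a median of 1.36. *mt-Rnr2* had 214472 and 206897 CPM in small members of knockout and 192479 and 322742 CPM in those of flox, against 50078 and 30967 CPM in likely cells of knockout and 10920 and 72402 CPM in those of flox (log2 fold change 2.71, SE 0.73, adjusted p = 0.0328). *Mki67*, a marker of dividing cells, had 473 and 614 CPM in small members of knockout and 477 and 367 CPM in those of flox, against 82.2 and 110 CPM in likely cells of knockout and 61.7 and 265 CPM in those of flox (log2 fold change 1.85, SE 0.49, adjusted p = 0.0328). *Hmgb2*, a chromatin protein of dividing cells, changed by 1.65 (SE 0.40, adjusted p = 0.0228). Likely cells held 12161 and 18213 counts in all in knockout 1 and 2 and 32417 and 15110 in flox 1 and 2. Their *Mki67* and *Hmgb2* values therefore rest on few counts. Of 2 tested cycling markers 1 rose, *Mki67*. Of 69 tested ribosomal protein genes 0 passed. Of 6 tested secretory pathway genes 0 passed, with a median of -0.20.

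**Figure D4:**
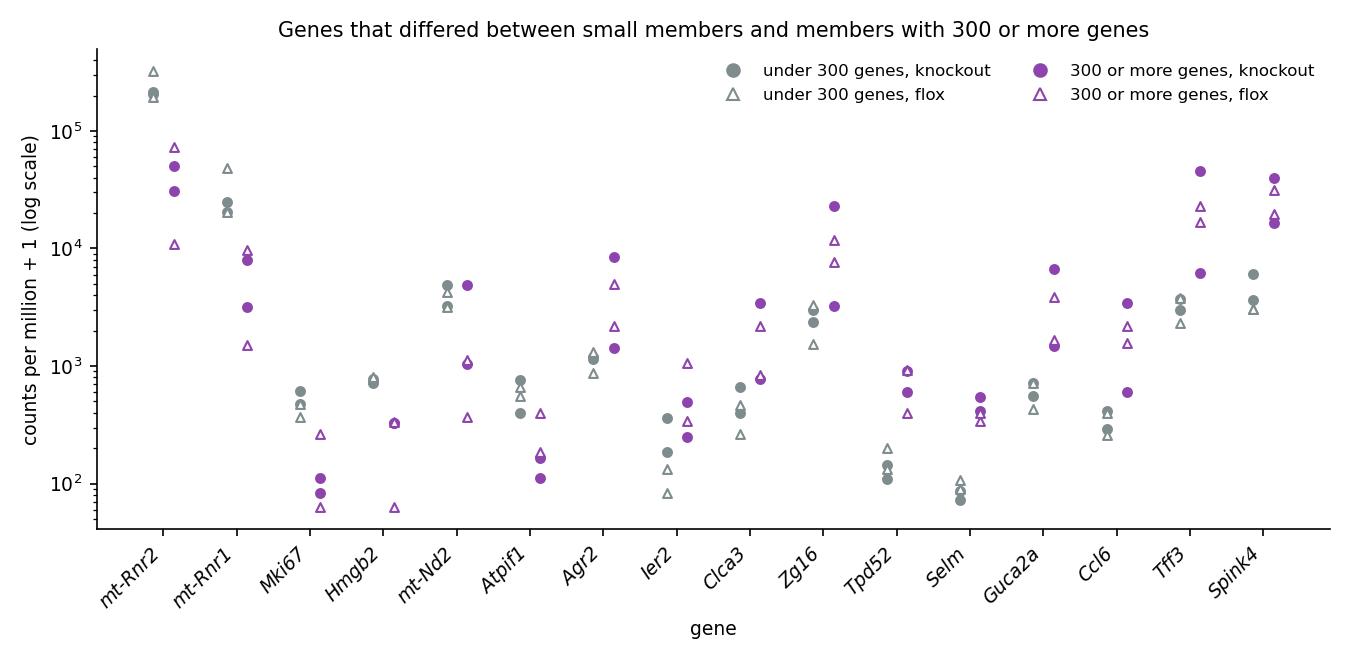
CPM + 1 (log axis) of the 16 named genes that passed the test between small members (grey) and members with 300 or more genes (purple), with knockout as filled circles and flox as open triangles, 2 biological replicates each. Each gene lies on the same side in 4 of 4 biological samples, although the 2 sets of 4 values overlap for some genes, such as *mt-Nd2* and *Ier2*.

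The rule genes themselves are given as values, since they chose the members. *Defa24* had 43528 and 79375 CPM in small members of knockout and 60011 and 33298 CPM in those of flox, against 65866 and 168286 CPM in likely cells of knockout and 166209 and 75711 CPM in those of flox. *Lyz1* had 7685 and 12217 CPM in small members of knockout and 12368 and 5071 CPM in those of flox. In likely cells *Lyz1* had 1398 and 29430 CPM in knockout and 34149 and 16281 CPM in flox. The low value belongs to knockout 1, whose 11 likely cells include 0 Paneth-majority and 5 goblet-marked barcodes.

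The knockout was compared with flox first by the share of barcodes that were members. It was 23.8%, 9.65% and 8.24% of barcodes with at least 100 counts in the knockout collections and 10.2%, 12.4% and 39.6% in the flox collections. Exact 95% binomial intervals, which cover counting error only, were 21.7% to 26.01% in knockout collection 1 and 37.7% to 41.5% in flox collection 3, the 2 high collections, and the groups overlap. By biological replicate the share averaged 12.6% ± 6.22 in knockout and 25.3% ± 20.2 in flox (SD, n = 2 each), a difference of -12.7 points that did not pass (exact permutation test, two-sided, p = 0.667, where 0.3333 is the smallest p possible). Within biological replicate 1 knockout was higher, with 17.0% against 11.01% in flox. Within biological replicate 2 it was lower, with 8.24% against 39.6%. Without flox collection 3 the difference was 1.63 points. Among barcodes with 300 or more genes and at most 25% mitochondrial counts the member share was 0.955% in knockout and 0.954% in flox.

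The high share in flox collection 3 moved with its barcodes of few counts and high mitochondrial share. Barcodes of 100 to 200 counts were 37.6%, 19.4% and 16.3% of those with at least 100 counts in the knockout collections and 10.5%, 18.9% and 40.8% in the flox collections. The mitochondrial share of summed member counts was 27.4%, 17.7% and 16.4% in knockout and 15.3%, 11.3% and 36.2% in flox. Its means were 20.2% in knockout and 24.97% in flox, a difference of -4.76 points (exact permutation p = 1), and without flox collection 3 the difference was 6.48 points. Fewer Paneth cells and less RNA released per cell cannot be told apart in these shares.

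Likely cells were 4, 7 and 12 of the members in the knockout collections and 7, 4 and 11 in the flox collections. As a share of members they averaged 5.29% ± 4.38 in knockout and 2.78% ± 2.36 in flox (SD over 2 biological replicates each, exact permutation p = 0.667). Without knockout collection 3 the difference was -0.59 points. Set against barcodes with 300 or more genes, Paneth-majority barcodes numbered 3.32 and 7.84 per 1000 in knockout 1 and 2 and 6.37 and 6.14 per 1000 in flox 1 and 2. The knockout values enclose the flox values.

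**Figure D5:**
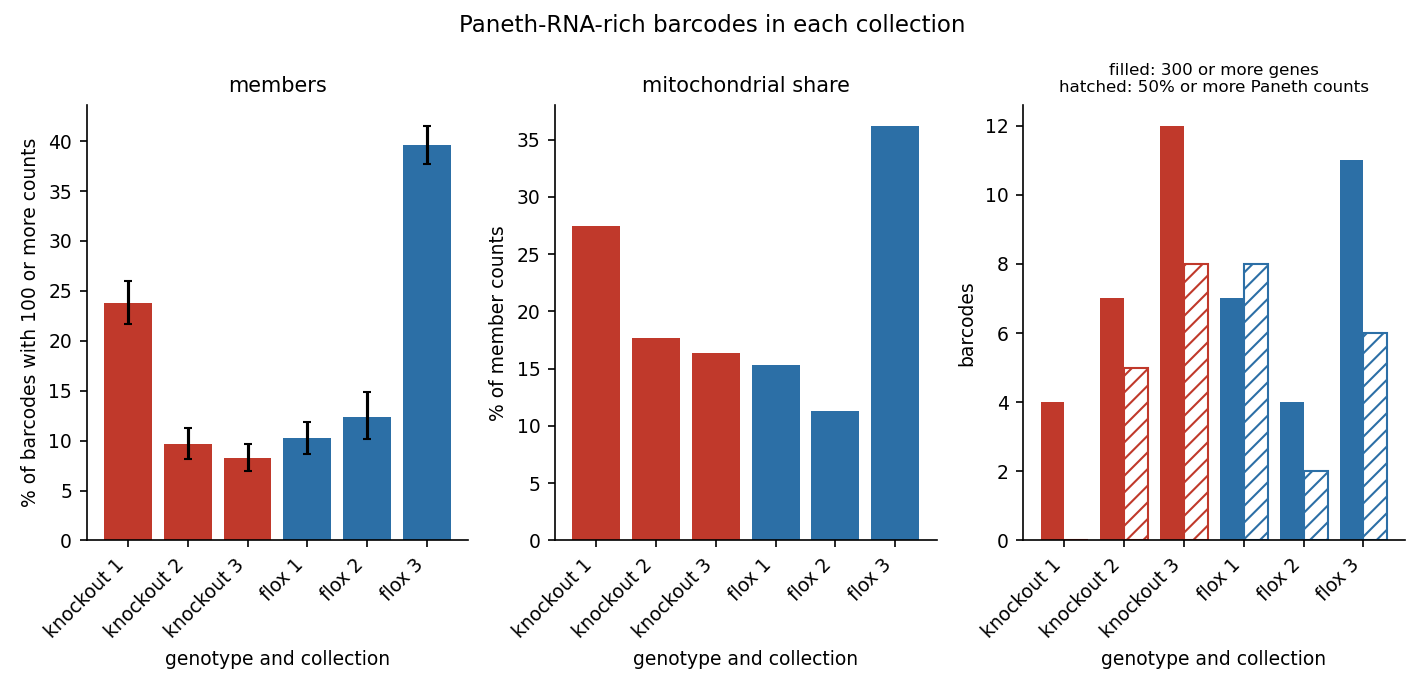
Members as a share of barcodes with at least 100 counts (left, % with exact 95% binomial intervals), mitochondrial share of the members' counts (middle, %) and numbers of members with 300 or more genes (right, filled) or with 50% or more Paneth counts (right, hatched), by collection, knockout left of flox. Knockout collection 1 and flox collection 3 are high in the left and middle plots, and knockout collection 1 has no Paneth-majority barcode.

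No gene outside the rule passed the test between knockout and flox. Over all members, 0 of 779 genes were called (0.0%; edgeR's quasi-likelihood test, 2 against 2 biological replicates), with 9 genes at an unadjusted p under 0.05 and 0 called by DESeq2, which had 3 at that level. Without knockout collection 3, 4 of 1221 genes (0.328%) were called over all members, 2 higher in knockout (0.164%) and 2 lower (0.164%), but this leaves knockout with 1 biological sample, which is assumed to vary like flox. In likely cells 0 of 153 were called (0.0%), with 3 at an unadjusted p under 0.05 and 0 called by DESeq2, and without knockout collection 3, with the same limit, there were 3 calls of 222 (1.35%), all lower in knockout (1.35%). Of the 17 tested other Paneth genes 8 had values above and 9 below 0, with a median log2 fold change of -0.12, against 0.00 over all tested genes. The 13 tested secretory pathway genes had a median of 0.02 and 6 tested goblet markers a median of -0.24. The collections of the genotypes overlap for the rule genes. *Defa24* had 35904, 67703 and 114671 CPM in the knockout collections and 120186, 92426 and 36782 CPM in the flox collections (log2 fold change 0.20, SE 2.05). *Lyz1* had 4951, 10184 and 19050 CPM in knockout and 30070, 10993 and 5992 CPM in flox (log2 fold change -0.08, SE 1.04).

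*Mt1*, which encodes the metal-binding metallothionein 1, had 22, 11 and 14 counts in members of the knockout collections (409, 390 and 305 CPM) and 7, 3 and 18 counts in those of flox (166, 107 and 97.9 CPM). The log2 fold change of 1.54 (SE 0.50) did not pass (edgeR adjusted p = 0.9997). In small members alone it stood at 424, 446 and 398 CPM in knockout and 209, 145 and 107 CPM in flox. Likely cells held 1, 2 and 3 counts in knockout and 2, 1 and 0 in flox, too few for the test. Whether the counts in small members came from Paneth cells was not tested. *Ptger4* had 1, 0 and 0 counts in members of the knockout collections and 1, 0 and 2 counts in those of flox, which is at or under the limit of 3 counts and gives no check of the deletion. *Trib1*, a pseudokinase gene, had 149, 426 and 501 CPM in knockout and 0, 142 and 147 CPM in flox, and *Jun* had 763, 1455 and 3640 CPM in knockout and 1593, 818 and 767 CPM in flox. Neither passed (adjusted p = 0.9997). The genes named on the lower side did not pass either. Their log2 fold changes were -1.29 for *Ubxn2a*, -1.15 for *Arhgap5*, -1.08 for *Ndufa4*, -1.06 for *Iqgap1* and -1.005 for *Fabp2*. *Ubxn2a* had 93.1, 71.0 and 87.2 CPM in knockout and 214, 213 and 185 CPM in flox. Of the 779 tested genes 390 had values above and 389 below 0. *Smek2*, a phosphatase subunit gene with a log2 fold change of 1.9996 (SE 0.59, adjusted p = 0.9997), rested on knockout collection 1, with 1247 CPM against 106 and 87.2 CPM in knockout collections 2 and 3.

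In likely cells 0 of 8 tested mitochondrially encoded genes passed between genotypes. All 8 values were above 0, with a median log2 fold change of 1.33. *mt-Nd2* had 8155, 3128 and 1043 CPM in the knockout collections and 442, 280 and 1125 CPM in flox (log2 fold change 1.86, SE 0.82, adjusted p = 0.997). *Hspa8*, a constitutive chaperone gene, had 1439, 876 and 714 CPM in knockout and 276, 280 and 331 CPM in flox (log2 fold change 1.56, SE 0.83, adjusted p = 0.997). *Reg3b*, an antimicrobial lectin gene, had 959, 501 and 1153 CPM in knockout and 552, 3356 and 2647 CPM in flox (log2 fold change -1.0005, SE 0.82, adjusted p = 0.997). The genotypes overlap for *mt-Nd2* and *Reg3b*. The makeup of the likely cells differed between collections beside these values, with Paneth-majority barcodes at 0%, 0% and 63.0% of likely-cell counts in knockout and 72.2%, 41.8% and 0% in flox, and its part in them was not tested.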

How the data were processed

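Counts of reads by gene and barcode were deposited by the authors, and per the submitters' processing notes the authors used STAR 2.6 and the mouse build mm10. No source used here gives the annotation, UMI settings or barcode filter. Counts of the 6 collections were read as deposited, with 1228337 to 3146909 counts each, and summed by genotype and biological replicate. The members and gene lists were chosen with earlier results of these data known, and the cuts for Paneth-majority and goblet-marked barcodes were set after values were seen. Doublets were not called. Genes were tested with edgeR 4.0.16 (quasi-likelihood, TMM, filterByExpr with a minimum count of 10, Benjamini-Hochberg threshold 0.05) in R 4.3.3, with DESeq2 1.42.0 as an alternative. Rule genes were fitted but are given as values. Shares were compared with exact permutation tests (scipy 1.17.1), and intervals are Clopper-Pearson at 95% and cover counting error only. CPM were taken over the counts of the summed barcodes. Named genes were up to 10 per direction with the largest fold change past the threshold, a mean of at least 50 CPM and the same direction in all samples, filled up to 5 by smallest p where fewer passed, plus the rule genes, *Mt1*, *Ptger4* and members of the lists. The scripts were tested on simulated data with a fixed spread between samples. This does not show which changes the tests could find in the real counts.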

Additional observations from a re-analysis of the deposited data

Results flagged for a closer look

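For 3 measures the genotype difference had opposite signs in the biological replicates, with 1 sample per genotype in each, so the difference between replicates was not tested. Samples were set side by side by replicate number, and whether these belong together was not settled. Knockout minus flox was 6.02 percentage points in biological replicate 1 and -31.4 in biological replicate 2 for the share of barcodes that were members. For the share of members with 300 or more genes it was -2.26 in biological replicate 1 and 7.28 in biological replicate 2. For the mitochondrial share of member counts it was 10.3 in biological replicate 1 and -19.9 in biological replicate 2.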

How the results depend on the processing

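Over all alternatives, 80 of 99 recomputed values of the comparisons kept their direction and their side of the threshold or stayed within 1.5 times a count. For 36 gene results 423 of 472 recomputed values counted as unchanged, with 47 no longer past the threshold. A gene that did not pass in the main fit counted as unchanged even when its sign turned. These 423 therefore do not show that direction was kept. The cause of the changes was not tested. The genotype difference in member share turned to 1.63 points without flox collection 3 (-16.4 to 1.63 over single collections left out) and to 0.00042 among barcodes with 300 or more genes and at most 25% mitochondrial counts. The difference in the share of members with 300 or more genes was -5.75 at a Paneth share of at least 20% and -0.591 without knockout collection 3 (-0.591 to 3.99). The difference in mitochondrial share was 6.48 without flox collection 3 (-7.96 to 6.48). Small minus likely mitochondrial share was 20.8 with single collections as samples, where collections 1 and 2 of a genotype share a biological replicate and are not independent. Genes called between genotypes in all members numbered 0 to 4 over collections left out, 1 with no filter on low counts and 4 without collection 3 of either genotype, an alternative chosen after seeing the data. In likely cells they numbered 0 to 3. Genes called between small members and likely cells numbered 0 at a Paneth share of at least 10%, 13 at 200 or more counts, 13 with single collections as samples, 49 with the split at 200 genes, 15 at 500 genes, 38 with DESeq2 and 11 to 31 over collections left out. With no filter on low counts there were 23, 21 higher and 2 lower. The fit at a Paneth share of at least 20% could not be made. *Zg16* stood at 0.19 at a Paneth share of at least 10%, and *Smek2* passed without knockout collection 3 (log2 fold change 2.62), where knockout is 1 biological sample and flox alone gives the spread. Collections with the same number correlated at -0.19, 0.17 and -0.0032. These values do not settle whether collections or biological replicates of the same number belong together. With the replicate block the genotype differences were -6.84 (member share), 1.59 (likely share) and -0.472 points (mitochondrial share), and 0 genes were called in members and 0 in likely cells. Precision is limited by 45 likely cells and a median of 141 counts in small members.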
